A study of Mus musculus with 2 samples.

Results

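In mast cells grown from the marrow of DNMT3A-KO and wild-type littermate mice, 1644 stretches of open chromatin inside protein-coding genes were called in the wild-type library and not in the DNMT3A-KO library. They were selected on that difference: the called ATAC-seq peaks of both libraries on chromosomes 1 to 19 and X were merged where they shared at least 1 bp, and the regions kept held a wild-type peak and no DNMT3A-KO peak, overlapped a protein-coding gene and lay more than 1 kb from every protein-coding gene end. The 1644 regions, called members here, were 18.5% of the 8894 merged regions inside genes and came from 23364 merged regions in all. Another 2941 regions inside genes had a DNMT3A-KO peak alone (knockout-only) and 4309 had peaks of both libraries (shared).

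ATAC-seq uses the Tn5 transposase, which cuts and tags DNA where chromatin is accessible, so that piled-up reads mark open sites. The study compared 1 DNMT3A-KO culture with 1 wild-type culture of bone marrow-derived mast cells, in keeping with its stated subject of Dnmt3a and mast cell inflammatory responses. Both cultures came from female mice aged 3 to 4 weeks (3 weeks in the series design), were grown for 4 weeks in interleukin 3 and were over 95% Kit and FcεRIα positive. The labels call the mutant mice DNMT3A-KO or DNMT3A-deleted and the controls wild-type littermates. They do not state which bases the mutant allele lacks, whether the deletion was present in all cells of the mouse, or how many mice gave each culture. With 1 library per genotype no difference could be set against a spread between animals, and every interval below is an exact (Clopper-Pearson) 95% interval for counting error alone. The DNMT3A-KO list held 19684 peaks and the wild-type list 17170, with a median summit pileup of 9 overlapping reads in both. A member lacks a call in the DNMT3A-KO list, which differs from a measured absence of accessibility.

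Dnmt3a is a de novo DNA methyltransferase, an enzyme that places methyl groups on cytosines, mostly at CG dinucleotides, without needing a methylated template. Open sites inside genes are often enhancers held open by sequence-specific transcription factors, and some are internal starts from which shorter transcripts begin. Mast cells are tissue granulocytes that bind IgE through its high-affinity receptor and release histamine, proteases and lipid mediators when the bound IgE is crosslinked.

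Sequence was at hand for the members that overlapped an annotated transcription start inside their gene. RefSeq windows on GRCm38.p6, from 250 bases before to 50 bases after each start, were overlapped by 124 of 1584 members (7.83%, interval 6.55 to 9.26). Of these 124 members, 107 covered a start window of their own host gene and 17 covered only that of a gene other than their host. Knockout-only regions inside genes covered a window in 146 of 2854 cases (5.12%, 4.34 to 5.99), and shared regions in 493 of 4195 (11.8%, 10.8 to 12.8). At the members' peak strengths the share among shared regions was 9.01%. The 8 windows printed next show what such a site looks like. They are the 4 strongest members over a start of their own gene and every such member in the gene lists used further on, each given as the 250 bases before the start, 5′ to 3′ on the strand of the gene, with the bases inside the wild-type peak in capitals.
Dgkz, chr2:91950349-91950598, minus strand: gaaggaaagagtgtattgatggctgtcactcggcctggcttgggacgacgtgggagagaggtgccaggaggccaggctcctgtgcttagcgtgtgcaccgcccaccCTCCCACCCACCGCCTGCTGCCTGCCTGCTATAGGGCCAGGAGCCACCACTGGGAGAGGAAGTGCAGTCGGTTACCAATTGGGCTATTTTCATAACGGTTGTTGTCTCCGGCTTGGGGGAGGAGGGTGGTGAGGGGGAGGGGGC
Grb2, chr11:115699535-115699784, minus strand: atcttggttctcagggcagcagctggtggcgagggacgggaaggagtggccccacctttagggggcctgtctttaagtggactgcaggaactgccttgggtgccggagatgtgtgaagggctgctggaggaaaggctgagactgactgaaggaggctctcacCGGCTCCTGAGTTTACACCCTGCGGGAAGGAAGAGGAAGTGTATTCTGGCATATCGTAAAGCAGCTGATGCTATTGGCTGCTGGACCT
Acyp1, chr12:85280436-85280685, minus strand: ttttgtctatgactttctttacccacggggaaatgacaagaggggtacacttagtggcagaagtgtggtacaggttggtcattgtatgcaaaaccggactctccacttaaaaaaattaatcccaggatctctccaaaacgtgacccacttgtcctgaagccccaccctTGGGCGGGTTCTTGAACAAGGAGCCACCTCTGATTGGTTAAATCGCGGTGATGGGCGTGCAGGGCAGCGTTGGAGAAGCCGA
Fcgr3, chr1:171059395-171059644, minus strand: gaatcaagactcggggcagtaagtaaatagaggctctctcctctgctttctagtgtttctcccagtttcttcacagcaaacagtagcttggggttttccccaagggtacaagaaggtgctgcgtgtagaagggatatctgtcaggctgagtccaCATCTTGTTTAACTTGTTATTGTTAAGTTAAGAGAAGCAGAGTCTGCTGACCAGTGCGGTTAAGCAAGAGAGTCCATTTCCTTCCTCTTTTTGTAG
Hdac7, chr15:97831496-97831745, minus strand: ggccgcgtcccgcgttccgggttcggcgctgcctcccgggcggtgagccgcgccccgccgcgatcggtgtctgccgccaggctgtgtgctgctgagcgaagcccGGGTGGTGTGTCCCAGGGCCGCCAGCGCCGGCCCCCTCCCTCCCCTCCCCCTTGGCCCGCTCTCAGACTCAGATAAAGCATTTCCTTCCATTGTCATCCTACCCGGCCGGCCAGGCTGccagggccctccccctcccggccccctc
Pik3cd, chr4:149698709-149698958, minus strand: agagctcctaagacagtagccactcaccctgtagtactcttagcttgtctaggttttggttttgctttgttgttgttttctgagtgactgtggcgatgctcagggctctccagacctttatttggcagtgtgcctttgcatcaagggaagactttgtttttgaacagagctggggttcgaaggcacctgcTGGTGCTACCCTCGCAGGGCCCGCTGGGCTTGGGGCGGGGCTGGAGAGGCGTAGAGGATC
Egr2, chr10:67537316-67537565, plus strand: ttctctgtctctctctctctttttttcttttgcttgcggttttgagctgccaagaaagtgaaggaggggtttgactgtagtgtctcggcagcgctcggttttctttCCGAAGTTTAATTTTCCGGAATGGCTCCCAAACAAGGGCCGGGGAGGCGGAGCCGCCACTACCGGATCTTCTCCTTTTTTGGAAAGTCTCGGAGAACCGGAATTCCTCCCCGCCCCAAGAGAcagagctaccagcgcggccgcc
Il1rl1, chr1:40429320-40429569, plus strand: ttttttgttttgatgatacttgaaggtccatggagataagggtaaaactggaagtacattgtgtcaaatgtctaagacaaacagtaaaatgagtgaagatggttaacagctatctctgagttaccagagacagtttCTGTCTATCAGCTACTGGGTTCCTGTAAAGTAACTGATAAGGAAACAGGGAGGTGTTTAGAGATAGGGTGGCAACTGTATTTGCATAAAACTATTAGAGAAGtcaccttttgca

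Dgkz encodes a diacylglycerol kinase, which removes the lipid second messenger that follows receptor activation, and Grb2 an adaptor that links tyrosine kinases to Ras. In the authors' wild-type list the Dgkz member had a −log10 q of 14.7, a fold enrichment of 10.3 and 18 reads piled up at its summit, and the nearest DNMT3A-KO peak was 2.32 kb away. The Grb2 member had 11.8, 9.24 and 10 for the same quantities, with the nearest DNMT3A-KO peak 13.1 kb away. Both starts lie well inside the gene, 26.1 kb from the outer end in Dgkz and 9.06 kb in Grb2.

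Fcgr3 encodes a low-affinity receptor for IgG, Il1rl1 the interleukin 33 receptor ST2, Pik3cd the catalytic subunit of the PI3 kinase of blood cells, Egr2 an immediate early transcription factor and Hdac7 a class IIa histone deacetylase. Their members were weaker on the −log10 q scale, at 11.2 for Fcgr3, 6.36 for Hdac7, 5.86 for Pik3cd, 5.22 for Egr2 and 4.80 for Il1rl1. A DNMT3A-KO peak lay 887 bp from the Fcgr3 member, 484 bp from that of Pik3cd and 140 bp from that of Egr2, so these genes were called open close by in both libraries. The 300-base windows differed in base composition. The ratio of observed to expected CG dinucleotides was 0.10 at Il1rl1, 0.20 at Fcgr3 and 0.32 at Pik3cd and Grb2, against 0.79 at Hdac7 and Egr2's higher value of 1, a range from CpG-poor to CpG-rich starts.

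Over all start windows beneath members, CpG-rich starts prevailed. The median CG ratio was 0.77 in the 133 windows beneath members, 0.70 in the 172 beneath knockout-only regions and 0.77 in the 585 beneath shared regions inside genes, and it was 0.39 over all 32619 windows. A ratio above 0.6 was found in 64.7% of the windows beneath members, 59.3% of those beneath knockout-only regions, 74.2% of those beneath shared regions and 36.0% of all windows. Open starts of every class were thus richer in CG than starts in general. The median ratio of members equalled that of shared regions to 2 decimals, and their share above 0.6 lay between those of the other 2 classes.

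Short motifs, each in the single spelling given, were counted on both strands of the same 300-base windows. The GC box bound by SP and KLF factors (GGGCGG) was in 47.4% of windows beneath members, 58.1% of those beneath knockout-only regions, 68.4% of those beneath shared regions and 35.9% of all windows. The CCAAT box of NF-Y (CCAAT) was in 30.8%, 39.5%, 41.9% and 37.6% of the same 4 sets, so it was less frequent beneath members than in each of the other sets. The ETS motif CCGGAAG was in 18.05%, 17.4%, 15.7% and 8.92%, and the CTCF core AGGNGGC in 39.1%, 37.2%, 46.2% and 29.4%. Of the motifs of factors that direct mast cell genes, the GATA motif AGATAA was in 9.02%, 6.98%, 5.30% and 11.2%, the E-box CANGTG in 41.4%, 45.9%, 35.7% and 45.1%, the RUNX motif TGTGGT in 16.5%, 15.7%, 10.9% and 16.6%, and the AP-1 motif TGANTCA in 4.51%, 6.40%, 4.62% and 7.85% of these sets. The GATA and RUNX motifs were thus more frequent beneath members than beneath the other open classes, and none of the 4 was more frequent beneath members than over all windows. With 133 windows these are descriptions of few sites.

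In the printed sequences, the capitals hold a CCAAT box at Dgkz, Grb2 and Acyp1, a GC box at Acyp1, Pik3cd and Egr2, the CTCF core AGGNGGC at Dgkz, Acyp1 and Hdac7, and the GATA motif AGATAA at Hdac7. The capitals at Fcgr3 and Il1rl1 hold none of the 8 motifs as spelled above. Other spellings were not counted, such as TGATAA, which also contains GATA and stands in the Il1rl1 capitals. A match is a run of letters and was not measured as binding.

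A member inside Cdc20b (chr13:113036020-113036152, −log10 q 7.36, summit pileup 8) was the only member over an annotated miRNA hairpin. It covered part of Mir449c, whose family is known from multiciliated cells, and the nearest DNMT3A-KO peak was 35.1 kb away. The peak spans all 22 bases of the 3p arm and 9 of the 21 bases of the 5p arm. Both mature arms are shown as RefSeq gives them for GRCm38.p6, with the seed, bases 2 to 8, in capitals.
mmu-miR-449c-5p: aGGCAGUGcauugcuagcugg
mmu-miR-449c-3p: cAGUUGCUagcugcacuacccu

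Members were weak calls. Their −log10 q in the wild-type list ran from 2.24 through a median of 6.16 to 21.8, their fold enrichment from 3.57 through 6.06 to 13.9, and their summit pileup from 3 through 6 to 21 reads. Knockout-only regions inside genes had a median −log10 q of 6.48 and a median pileup of 6 in the DNMT3A-KO list. Shared regions inside genes had median pileups of 11 in the DNMT3A-KO list and 10 in the wild-type list, with median −log10 q values of 10.7 for the DNMT3A-KO peak and 9.40 for the wild-type peak. A member was therefore a site whose summit held about as many reads as that of a knockout-only site and fewer than that of a typical shared site. Members were also narrow: 40.2% were 100 bp wide, the shortest width in the lists, compared with 33.7% of knockout-only regions inside genes.

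The strong end of the range was thinly filled. A −log10 q of at least 10 was reached by 94 members (5.72%) and by 316 knockout-only regions inside genes (10.7%). At 15 the counts were 3 members and 28 knockout-only regions, and at 20 each class had 1. These limits are the authors' own scores within each list, and a common limit need not be equally strict in both.

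**Figure D1:**
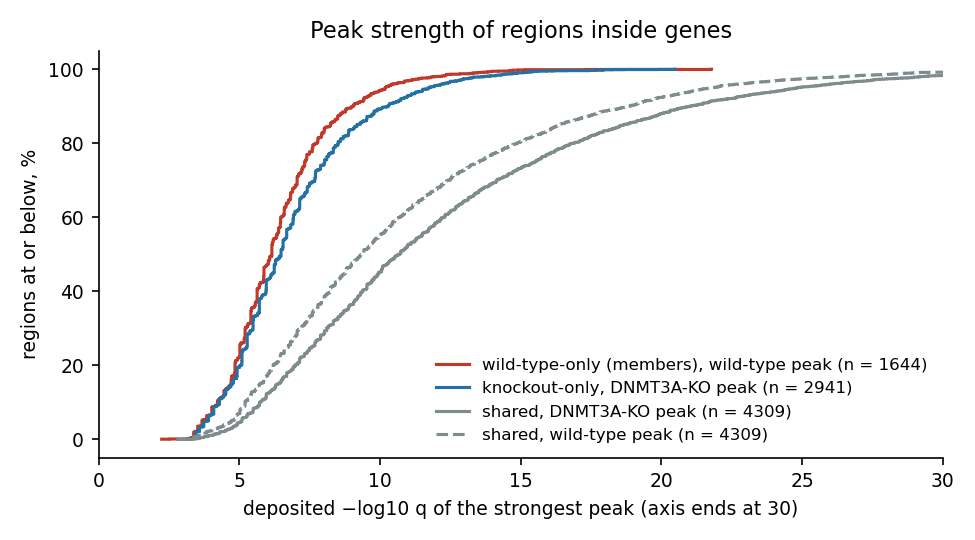
Cumulative share of regions inside genes (y axis, %) at or below a given deposited −log10 q (x axis) for members, knockout-only regions and shared regions, the last drawn from the DNMT3A-KO peak and from the wild-type peak. The curve of the 1644 members rises first, with a median of 6.16, followed by that of the 2941 knockout-only regions, with a median of 6.48.

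From a −log10 q of 4 upward, the share of wild-type sites inside genes that lacked a DNMT3A-KO call fell with strength. It was 56.0% of sites with a −log10 q between 4 and 5, 43.8% between 6 and 7, 19.8% between 8 and 10 and 4.98% between 12 and 15. From 15 to 20 it was 2 of 518 sites, and at 20 and above 1 of 328, the site in Dnmt3a itself. Over all strengths 27.6% (26.5 to 28.8) of wild-type sites inside genes were members. The same share was 16.1% at gene ends and 29.5% between genes. Reweighted to the strengths found inside genes, these became 21.6% at gene ends and 28.3% between genes. Sites inside genes thus resembled those between genes in this respect and were unpartnered more often than sites of like strength at gene ends. The DNMT3A-KO list, treated in the same way, gave 40.6% of its sites inside genes without a wild-type call. At gene ends it gave 31.1% and between genes 39.1%, so the lower share at gene ends was common to both lists.

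**Figure D2:**
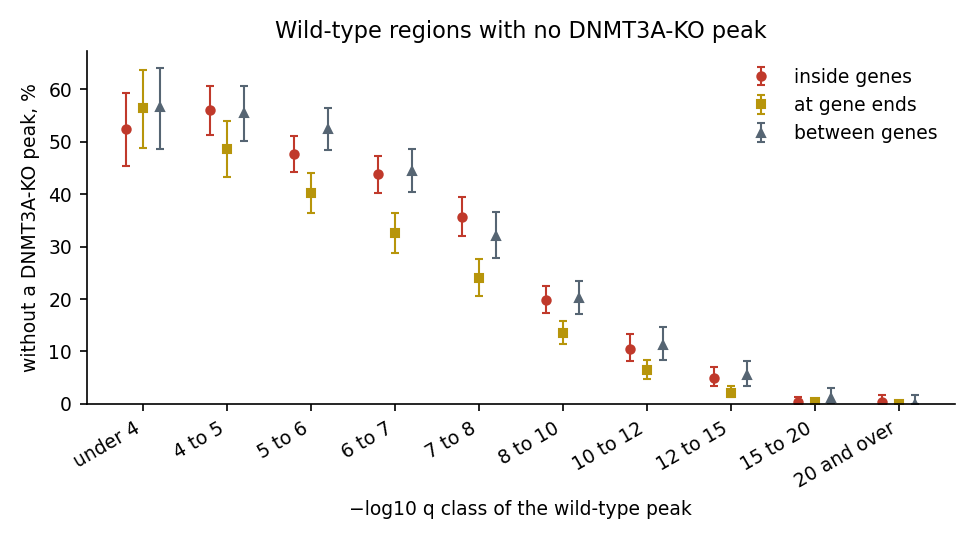
Share of regions with a wild-type peak that have no DNMT3A-KO peak (y axis, %) by the −log10 q class of the wild-type peak (x axis), inside genes, at gene ends and between genes, with exact 95% intervals as bars. From 4 to 15 the share falls as strength rises in each place, and from 5 to 15 the points inside genes lie above those at gene ends.

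By place, wild-type-only regions were 18.5% of merged regions inside genes, 13% at gene ends, 20% between genes and 16.9% overall. Of all 3952 wild-type-only regions, 41.6% (40.1 to 43.2) lay inside genes, against 45.0% of knockout-only and 33.5% of shared regions. Among unshared regions, the wild-type-only share was 35.9% (34.5 to 37.3) inside genes, 40.2% (38.3 to 42.0) at gene ends and 38.1% (36.5 to 39.9) between genes. The interval inside genes did not overlap that at gene ends. The balance changed with the settings. With the longer DNMT3A-KO list reduced to its strongest 17170 peaks, 47.4% of unshared regions inside genes were wild-type-only. That cut also takes the DNMT3A-KO call from weak shared sites, and members rose from 1644 to 1933. Among unshared regions with a −log10 q of at least 10, from the full lists, the share was 22.9%.

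Many members lay beside a DNMT3A-KO peak. The nearest one was at a median of 13.2 kb, within 100 bp for 103 members (6.27%), within 1 kb for 255 (15.5%, 13.8 to 17.4) and within 10 kb for 42.9%. Seen from the other side, 8.70% (7.71 to 9.78) of knockout-only regions inside genes had a wild-type peak within 1 kb and 32.9% within 10 kb. The order was the same when the lists were given equal length, with 12.4% of members and 8.02% of knockout-only regions within 1 kb. A shared region lay within 1 kb of 154 members (9.37%). Among these, 1 in Gse1 (chr8:120368858-120368960) lay 3 bp from a shared region and 117 bp from the DNMT3A-KO peak in it.

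The closest members had no base between them and a DNMT3A-KO peak. One was in G2e3, a ubiquitin ligase gene (chr12:51355338-51355493), with a −log10 q of 12.3 and a pileup of 10, and the other in Dnm3, which encodes a dynamin (chr1:162013735-162013878), with 5.17 and 6. The most remote were both in Astn2, a gene known from neuronal migration, at 2178 and 2114 kb from any DNMT3A-KO peak, with −log10 q values of 6.47 and 4.85 and pileups of 5. At the 1 kb limit of the selection, the members nearest to a gene end were in Macir, at 1001 bp with a −log10 q of 3.35, and in Hs6st2, at 1005 bp with 6.66. Just outside it, wild-type-only regions in Tnfrsf11b at 997 bp and in the overlapping genes Pdzd7 and Sfxn3 at 992 bp had 5.88 and 6.66.

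The strongest member was in Dnmt3a, the gene lost in the mutant mice (chr12:3897094-3897359). It had a −log10 q of 21.8, a fold enrichment of 13.9 and a pileup of 21 in the wild-type list. No DNMT3A-KO peak was listed within 25.8 kb. It lies 5.35 kb downstream of the innermost annotated Dnmt3a start in the RefSeq table, at position 3891744. A weaker Dnmt3a member (chr12:3868718-3868880, −log10 q 8.56, pileup 12) lies 22.9 kb upstream of that start and 2.06 kb from a DNMT3A-KO peak. The gene also held 1 knockout-only and 4 shared regions, so that the DNMT3A-KO library was open at other points of the locus. Whether the strongest member falls in bases that the mutant allele lacks cannot be told apart from a loss of openness, since the labels do not give the allele.

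The next strongest members, given as −log10 q and pileup in the wild-type list, spanned genes of several kinds. A member in Nol4l (chr2:153493964-153494150), a nucleolar protein gene, had 17.3 and 21, with a DNMT3A-KO peak 2.06 kb away. A member in Inpp4b (chr8:81756827-81757048), which encodes a phosphoinositide phosphatase, had 15.1 and 13, at 5.37 kb. A member in Ccdc91 (chr6:147541074-147541208), a gene of Golgi traffic, had 14.9 and 11, at 65.2 kb. None of these 3 had a call of the other library within 2 kb.

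Next after Dgkz came Il1rap, which encodes the co-receptor shared by the interleukin 1 and interleukin 33 receptors, with 14.6 and 12 at chr16:26597300-26597457, and Pigk, an enzyme of the GPI anchor pathway, with 14.6 and 18. Ece1, an endothelin-cleaving protease gene, had 14.6 and 11. Endothelin is itself a peptide that mast cells bind and degrade. Foxp1, a forkhead transcription factor gene, had 14.2 and 15, Niban1 13.96 and 12, Pebp4 13.96 and 12, and the netrin receptor gene Unc5b 13.8 and 13. For these 7 members the nearest DNMT3A-KO peak was between 2.40 kb (Unc5b) and 77.1 kb (Pebp4) away.

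Members that overlapped a gene of another type were few. Of the 1644, 121 (7.36%, 6.14 to 8.73) overlapped a lncRNA gene, as did 6.12% of knockout-only and 7.52% of shared regions inside genes. The strongest were the Nol4l member over 4930404H24Rik, annotated as a miscellaneous RNA, the Pebp4 member over Gm41198, a Gse1 member over Gm32968, a Nos1ap member over Gm46171 and a Cd82 member over Gm10804. The last 4 are lncRNA genes, and the Cd82 and Nos1ap members had −log10 q values of 10.7 and 10.9.

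Members were spread over 1360 protein-coding genes, 6.29% of the 21631 in the annotation. Of these genes, 1123 held 1 member, 193 held 2, 32 held 3 and 12 held more. Genes with members were long, with a median of 76.8 kb, against 70.7 kb for genes with knockout-only regions, 62.5 kb for genes with shared regions and 17.3 kb for all genes. Per Mb of gene, members numbered 2.21 in genes of 10 to 20 kb, 2.08 in those of 50 to 100 kb, 1.29 in those of 200 to 500 kb and 0.591 (0.487 to 0.710) in those over 500 kb. The density per Mb was thus lowest in the longest genes, as it also was for knockout-only and shared regions.

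**Figure D3:**
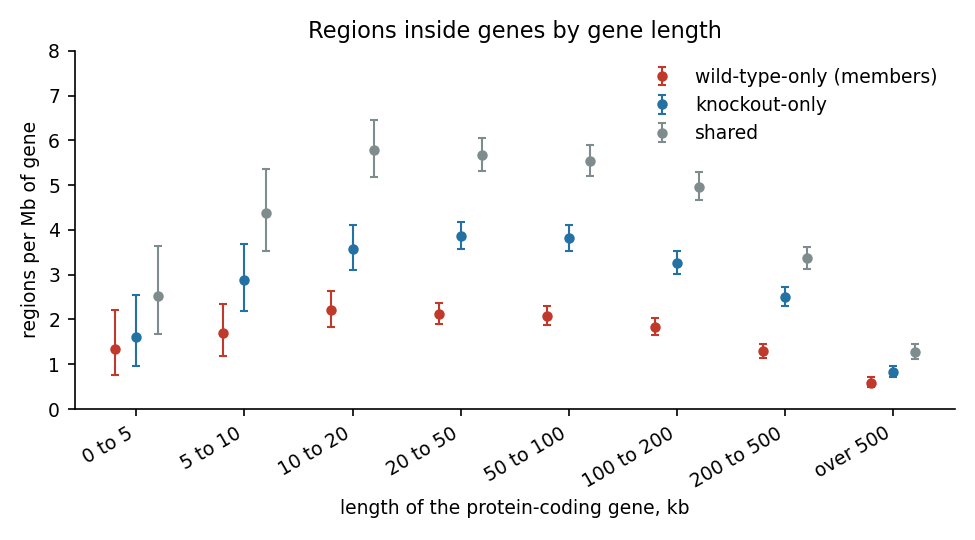
Regions inside genes per Mb of gene (y axis) by the length of the protein-coding gene in kb (x axis) for members, knockout-only and shared regions, with exact Poisson 95% intervals as bars. In each class the density is lowest in genes over 500 kb, at 0.591 members, 0.829 knockout-only and 1.28 shared regions per Mb.

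The density of members was next compared between genes whose own end was open in both libraries and other genes, and the order differed with gene length. In genes of 200 to 500 kb with a shared region within 1 kb of an end there were 2.27 (1.86 to 2.74) members per Mb, against 1.05 (0.904 to 1.21) in genes without one. Knockout-only regions of this length class were also denser in genes with an open end, at 240 in 46.7 Mb against 340 in 184.4 Mb. Members were 30.6% of the unshared regions in the former genes and 36.2% in the latter. Above 500 kb the densities of members were 1.16 (0.735 to 1.74) and 0.526 (0.423 to 0.646). Between 20 and 50 kb they were 1.95 (1.61 to 2.34) and 2.23 (1.95 to 2.54), whose intervals overlap. Between 5 and 10 kb the order was the reverse, at 0.326 (0.0395 to 1.18), from 2 members, and 2.25 (1.56 to 3.15).

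Most members shared their gene with other open sites. For 882 members (53.6%, 51.2 to 56.1) the gene also held a shared region away from its ends, and for 741 (45.1%, 42.6 to 47.5) it held a knockout-only region. Genes with members held shared regions inside more often than genes without members at each length, for example 74.5% and 31.4% at 200 to 500 kb and 30.6% and 14.3% at 20 to 50 kb. There were 547 genes with both unshared kinds, which is 40.2% of the genes with members and 25.2% of those with knockout-only regions. In 519 genes (38.2%, 35.6 to 40.8) members were the sole regions inside the gene. The like share was higher for knockout-only regions, at 1016 of 2167 genes (46.9%, 44.8 to 49.0). Members seldom came in clusters: 27 lay within 1 kb of the next member and 14 within 100 bp.

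Along the gene, members were placed like the other classes. For the 1318 members in a gene with a known strand, the median distance from the outer start was 32.2 kb, and 23.1% lay in the first 20% of the gene and 16.5% in the last 20%. The first 20% of the gene held 22.5% of knockout-only and 24.3% of shared regions inside genes. By chromosome, members per Mb of protein-coding gene ran from 0.723 on the X to 2.43 on chromosome 11. Knockout-only and shared regions were likewise sparse on the X, at 42 and 63 in 45.7 Mb. They were also dense on chromosome 11, at 239 and 371 in 56.0 Mb. Among unshared regions inside genes the wild-type-only share was 24.3% (17.6 to 32.1) on chromosome 19 and 44.0% (32.5 to 55.9) on the X. These intervals just missed each other. Both chromosomes were picked as the lowest and highest of all, so the gap is no measure of a difference between chromosomes.

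Gse1, a subunit of a histone demethylase complex, held 7 members, the most of any gene, beside 6 knockout-only and 11 shared regions over 353 kb. The Gse1 members had −log10 q values between 4.72 and 13.3 and pileups between 6 and 20, and the strongest (chr8:120336144-120336298) lay 3.04 kb from a DNMT3A-KO peak. Another Gse1 member (chr8:120539410-120539591) had 11.3 and 19, at 4.18 kb. In this gene the wild-type library alone, the DNMT3A-KO library alone and both libraries were thus called at separate points.

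Foxp1, which acts in lymphoid and myeloid differentiation, held 5 members, 3 knockout-only and 4 shared regions. Apart from the member of −log10 q 14.2 (chr6:99388759-99388998), its members had values from 5.30 to 6.33 and pileups of 6 or 7. Tiam1, an exchange factor that activates the GTPase Rac, held 5 members, 3 knockout-only and 10 shared regions. The Tiam1 members had −log10 q values from 4.22 to 7.11, and 2 of them lay within 1 kb of a DNMT3A-KO peak.

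Baz2b, a bromodomain gene, held 5 members, 0 knockout-only and 3 shared regions inside, the members with −log10 q values from 3.73 to 5.71. The Baz2b members at chr2:60018986-60019085 and chr2:60077094-60077193 lay 150 and 135 bp from a DNMT3A-KO peak. Those at chr2:60138877-60138985 and chr2:60139014-60139113 lay close to each other, so the members were not all separate sites. A knockout-only region at the outer start of Baz2b was stronger, with a −log10 q of 8.17 and a pileup of 8. Nedd4l, a ubiquitin ligase gene, held 5 members, 1 knockout-only and 5 shared regions inside, and Septin9, a cytoskeletal GTPase gene, held 4, 3 and 6. A pair of genes on the list are not known as mast cell genes: Dlg2, a synaptic scaffold gene of 1973 kb, held 5, 1 and 1, and Spata16, known from sperm formation, held 4, 0 and 1. Their members had pileups of 5 to 7. The Spata16 members lay between 5.27 and 95.8 kb from a DNMT3A-KO peak.

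Mitf encodes a basic helix-loop-helix factor that acts in mast cell development. It held 4 members, 3 knockout-only and 4 shared regions inside, and a shared region at its outer start with −log10 q values of 26.6 in the DNMT3A-KO list and 16.4 in the wild-type list. The Mitf members, all 100 bp wide, had −log10 q values of 5.24 (chr6:97880560-97880659), 6.35 (chr6:97898284-97898383), 5.57 (chr6:97988514-97988613) and 3.52 (chr6:98015707-98015806). Their pileups were 8, 9, 6 and 4 reads. The nearest DNMT3A-KO peaks lay 3.27 kb, 725 bp, 10.0 kb and 125 bp away. The third lies 3.17 kb upstream of the innermost annotated Mitf start. The strong Mitf sites were shared, the strongest inside the gene having −log10 q values of 30.5 in the DNMT3A-KO list and 30.7 in the wild-type list.

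**Figure D4:**
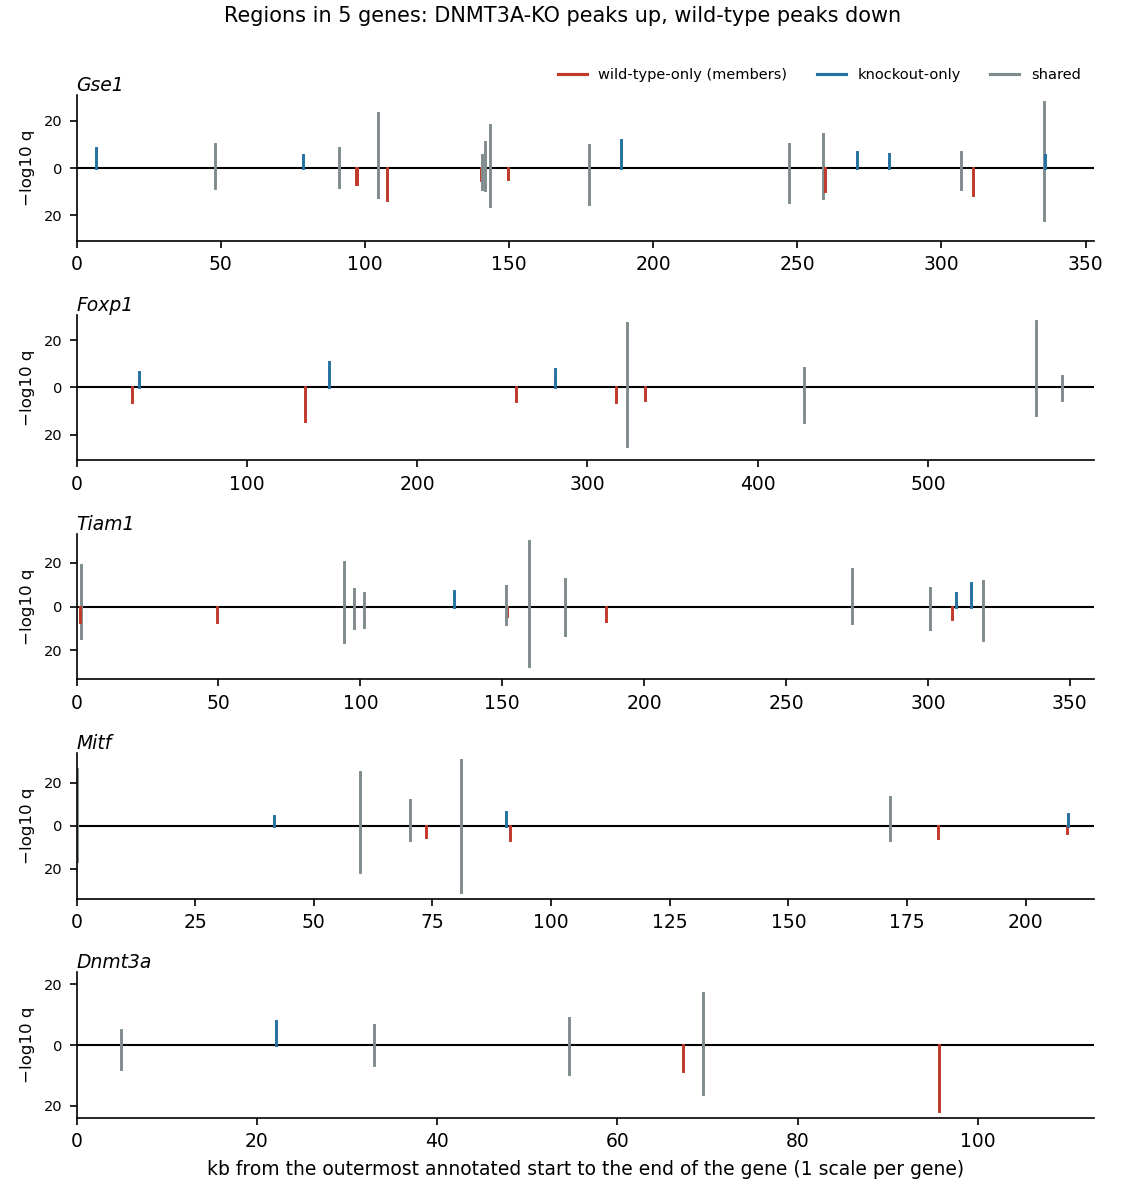
Peaks in Gse1, Foxp1, Tiam1, Mitf and Dnmt3a by distance from the outermost annotated start (x axis, kb, 1 scale per gene), with the −log10 q of the DNMT3A-KO peak drawn upward and that of the wild-type peak downward (y axis). Members (red) point down alone, knockout-only regions (blue) up alone, and shared regions (grey) both ways; the member at 95.7 kb in Dnmt3a, at 21.8, is the tallest red line.

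Members were next counted in 25 gene lists of 725 genes in all. Of these, 138 (19.03%) held 198 members, against 6.29% of all genes, and all genes at the lengths of the listed genes would give 10.2%. The listed genes also held 326 knockout-only and 563 shared regions, so that 37.8% of their unshared regions were members, against 35.9% over all genes. Per Mb of gene, the listed genes held 2.55 members, 4.20 knockout-only and 7.25 shared regions, against 1.58, 2.83 and 4.15 in all genes. Open sites of each class were thus denser in the listed genes, and the balance between the libraries in them was near that of all genes. Counts per list are small, and no test was made on them.

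Receptors and surface proteins held members in 4 of 30 genes (13.3%), where all genes at these lengths would give 4.82%. The list held 5 members, 7 knockout-only and 23 shared regions. The ST2 gene Il1rl1 had 2 members (chr1:40427405-40427514 and chr1:40429456-40429557), with −log10 q values of 4.88 and 4.80 and pileups of 12 and 11, beside 2 shared regions and no knockout-only region. Csf2rb, the common beta chain of the interleukin 3 receptor, had 1 member (5.91, pileup 8) and no other region inside. Fcgr3 had the member over its inner start and Cd63, a granule membrane protein gene, had 1 at 3.38. Kit, the stem cell factor receptor gene, held no member, 1 knockout-only and 2 shared regions. Fcer1a, Ms4a2 and Fcer1g, genes of the IgE receptor, held no member either.

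Proteases and granule matrix enzymes held 9 members in 6 of 24 genes, beside 16 knockout-only and 15 shared regions. That is 25% of the genes, where like lengths would give 7.80%. Ext1 and Hs2st1, which build and sulphate heparan chains, and Chst11, which sulphates chondroitin, held 2 members each, with −log10 q values from 3.84 to 7.23. Xylt1, which starts such chains, held 1 at 8.49. Cpa3 and Srgn were named after their values were seen. Cpa3, the mast cell carboxypeptidase gene, had 1 member (chr3:20223438-20223553, −log10 q 6.97, pileup 10). Srgn, the gene of the granule proteoglycan serglycin, had 1 (6.90, pileup 10). No other protease gene of this list held a member: Cma1, Cma2, Mcpt1, Mcpt2, Mcpt4, Mcpt8, Mcpt9, Tpsb2, Tpsg1, Prss34, Gzmb and Ctsg had none. Tpsb2 and Prss34, at 1.789 and 1.775 kb, could hold none, because a member lies more than 1 kb from each gene end. The rest, apart from Cma2 (38.8 kb) and Mcpt2 (23.1 kb), are at most 5.25 kb long, which leaves little room for a member. Among genes for histamine, serotonin and eicosanoid synthesis, members lay in 3 of 17 (17.6%, like lengths 8.90%), beside 6 knockout-only and 19 shared regions. Tbxas1, thromboxane synthase, held 3 members, Ddc, which makes serotonin from its precursor, 1, and Pla2g5, a phospholipase, 1. Hdc, also in this list, held no region of any class inside.

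Proximal signalling from the IgE receptor was the list with the highest share, with members in 13 of 34 genes (38.2%), where all genes at these lengths would give 11.98%. It held 17 members, 25 knockout-only and 41 shared regions. Syk, the kinase recruited to the receptor, held 2 members (−log10 q 5.20 and 4.02, pileups 5 and 4), no knockout-only and 1 shared region. Csk, which restrains Src kinases, held 2 (8.22 and 5.72, pileups 18 and 15) at 647 and 869 bp from a DNMT3A-KO peak, beside 3 shared regions. Plcg2, the phospholipase that produces diacylglycerol, held 2 at 5.41 and 4.69, and Ptpre, a receptor tyrosine phosphatase gene, 2 at 8.58 and 6.14. The Syk and Plcg2 members lay over 10 kb from any DNMT3A-KO peak, unlike those of Csk.

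Downstream of these, the PI3 kinase list held members in 5 of 32 genes, the Ras, MAP kinase and protein kinase C list in 10 of 42 and the calcium list in 5 of 27. These are 15.6%, 23.8% and 18.5% of the genes, where like lengths would give 14.6%, 12.2% and 13.8%, so that the PI3 kinase share was near that of all genes. Inpp4b held 3 members, 4 knockout-only and 5 shared regions. Its members had −log10 q values of 15.1, 7.68 and 4.02. Map3k1, a MAP kinase kinase kinase gene, held 2 at 11.9 and 4.85, the stronger 384 bp from a DNMT3A-KO peak. Itpkb, an inositol trisphosphate kinase gene, held 2 at 8.30 and 7.11, and Ppp3ca, a catalytic subunit of calcineurin, 2 at 8.95 and 5.02. The PI3 kinase list was the one of these 3 in which members were fewest beside knockout-only regions, at 7 and 23. The numbers were 11 and 24 in the Ras, MAP kinase and protein kinase C list and 8 and 15 in the calcium list.

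Actin, adhesion and integrin genes held 18 members in 15 of 41 genes (36.6%, like lengths 13.2%), beside 30 knockout-only and 46 shared regions. Itga9, an integrin gene, held 3 members with −log10 q values from 4.27 to 7.06. Myo1e, an unconventional myosin gene, held 2, of which the stronger (chr9:70257559-70257772, 11.5, pileup 11) lay 139 bp from a shared region. Coro1a, an actin-binding protein of blood cells, held 1 at 9.32.

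Granule exocytosis and membrane traffic genes held 17 members in 12 of 44 genes (27.3%, like lengths 12.1%), beside 22 knockout-only and 37 shared regions. Unc13d, the Munc13-4 protein that primes secretory granules for fusion, held 2 members at 8.01 and 6.42, the weaker 417 bp from a DNMT3A-KO peak. Ap3b1, an adaptor subunit for lysosome-related organelles, held 2 at 10.9 and 5.87, both more than 24 kb from any DNMT3A-KO peak. Snx29 held 3 between 4.02 and 5.02.

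Mast cell and haematopoietic transcription factors held the largest number of members of any list, 29 in 14 of 54 genes (25.9%, like lengths 13.2%), against 42 knockout-only and 63 shared regions. Foxp1, Mitf and Fli1 accounted for 13 of them. Fli1, an ETS factor gene, held 4 members at −log10 q values from 4.85 to 7.75, of which 1 lay 20 bp from a DNMT3A-KO peak. Runx1 held 2 members (9.05 and 7.48, pileups 10 and 13) at 33.7 and 25.8 kb from the nearest DNMT3A-KO peak, beside 1 knockout-only and 9 shared regions. Meis2, named after its values were seen, held 2 members at 5.63 and 6.08 and no other region, the nearest DNMT3A-KO peak being 250.1 kb away.

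Inflammatory and activation factors were the list, apart from those of other cell types, in which members outnumbered knockout-only regions, 16 against 14, in 11 of 46 genes (23.9%, like lengths 7.38%). With peaks within 1 kb of each other joined, 7 of the 46 genes held a member. Bach2, a repressor of activation genes, held 3 at −log10 q values from 5.85 to 6.74. Nfatc1 and Nfatc2, the calcium-driven factors behind cytokine induction, held 2 each, and in each gene 1 of them lay within 100 bp of a DNMT3A-KO peak. Stat3 held 2 members, at 6.46 and 5.63, and no other region inside, with the nearest DNMT3A-KO peaks 13.5 and 26.5 kb away. The list of cytokines, chemokines and their feedback genes has a median gene length of 4.68 kb. It held members in 2 of 42 genes (4.76%, like lengths 1.86%). Lif, a cytokine of the interleukin 6 family, held 1 at 5.39, and Tnip3, an inhibitor of NF-kappaB signalling, held 2 at 6.03 and 5.02.

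DNA methylation and histone modifier genes held 15 members in 12 of 54 genes (22.2%, like lengths 13.5%), against 25 knockout-only and 46 shared regions. Hdac7 held 3 members (−log10 q 7.79, 7.09 and 6.36), among them the one over its inner start, with 2 knockout-only regions and 1 shared region. Kmt2d and Kmt2c, methyltransferases for histone H3, held 1 each at 10.2 and 8.49. Beside the 2 in Dnmt3a, no member lay in the genes of the other DNA methyltransferases on the list. Cell cycle genes held 3 members in 2 of 31 genes (6.45%, like lengths 6.07%), Cdk17 and Ccnd1, and stem and progenitor genes 4 in 4 of 22 (18.2%, like lengths 9.21%), namely Mecom, Msi2, Angpt1 and Hmga2, at −log10 q values between 5.20 and 6.16.

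The lists of other cell types are short, and like-length genes would also hold few members. T and NK cell, erythroid and megakaryocyte, and liver genes, 18 in each list, held none, where like lengths would give 5.60%, 5.44% and 4.52%, about 1 gene per list. Macrophage markers held 1 in 20 (Mertk, −log10 q 6.16) and B cell markers 1 in 16 (Cd74, 3.27, at 136 bp from a DNMT3A-KO peak), or 5% and 6.25%, where like lengths would give 5.27% and 5.51%. Neutrophil markers held 1 in 18 (Csf3r, 5.88; 5.56%, like lengths 1.60%), basophil markers 1 in 5 (Itga2, 3.67; 20%, like lengths 6.86%) and housekeeping genes 1 in 18 (Ywhaz, 5.96; 5.56%, like lengths 3.07%). Among 24 neuron genes Dlg2, Dscam and Cntnap2 held 8 members, beside 3 knockout-only and 5 shared regions, so that 12.5% of the list held a member, where like lengths would give 23.3%. These neuron genes are very long, and the list's density of 0.392 members per Mb was below the 1.58 per Mb of all genes. In bulk material fewer cells of a type and less openness per cell cannot be told apart.

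**Figure D5:**
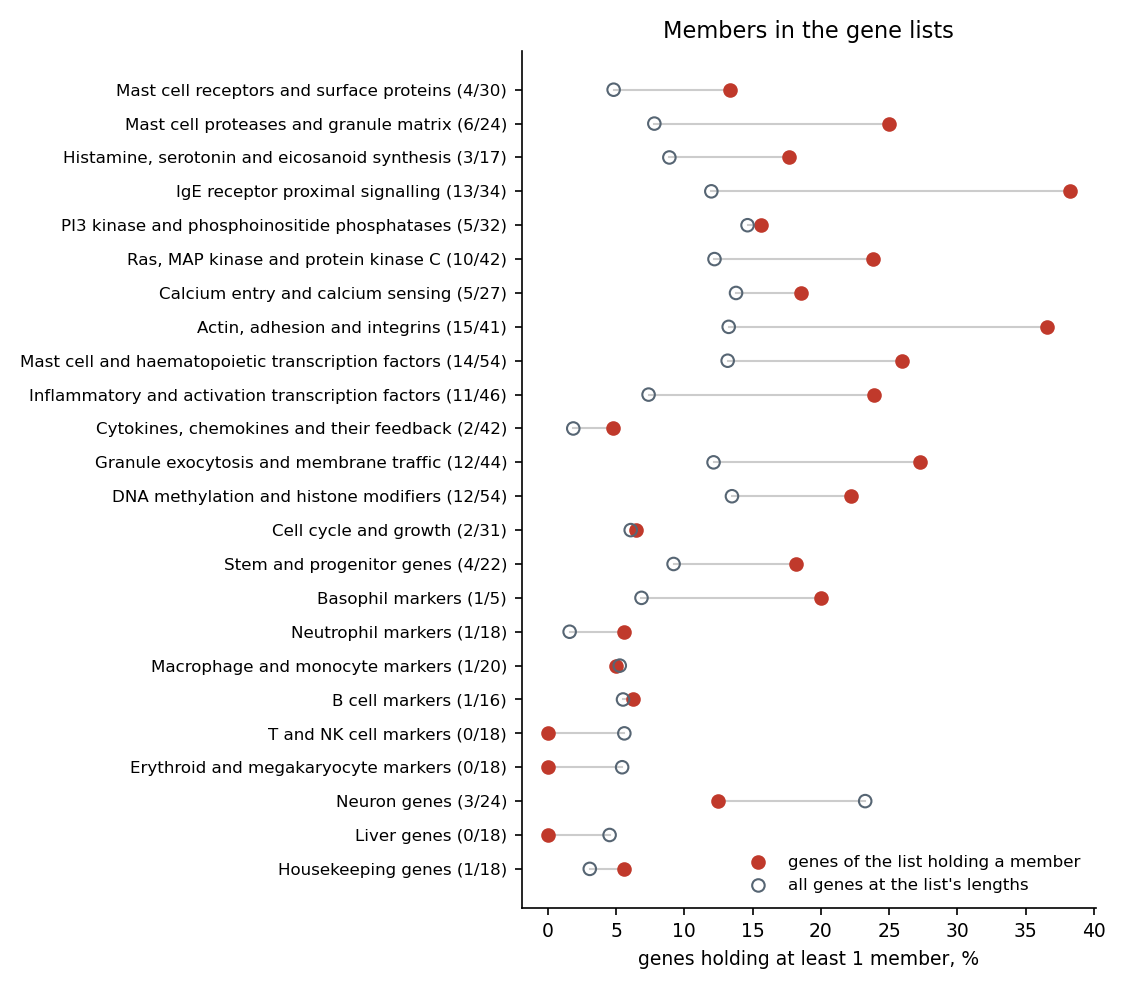
Share of the genes of each list described in the text that hold at least 1 member (filled points; x axis, %) and the share that all protein-coding genes at the same lengths would give (open points), with counts of genes beside each name. The IgE receptor list stands at 38.2% and 11.98%, and the T and NK, erythroid and liver lists at 0%; no test was made on these counts.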

How the data were processed

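ATAC-seq peak lists of 1 DNMT3A-KO and 1 wild-type library were used. The submitters' processing notes name Trimmomatic, Bowtie2 and MACS2, and mm10 and GRCm38. The sources used here give no versions or settings, nor whether read ends were moved to the Tn5 cut, which would displace peak edges by a few bases. Per the file layout, the authors deposited for each peak a score, a fold enrichment and 2 significance values, −log10 p and −log10 q. The fold was read as the pileup plus 1 over the local background plus 1, which lies below their plain ratio. The deposited score was the whole part of 10 times −log10 q in 100% of peaks. Per the labels, libraries were 50 bp single reads at a stated depth of 10 M reads. The lists carry no read totals. Solving fold and −log10 p for the reads at each summit gave whole numbers for 100% of peaks in both lists (tolerance 0.001 in −log10 p), and the lowest local background was 0.0599 in the DNMT3A-KO and 0.0644 in the wild-type library.

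Peaks sharing at least 1 bp were merged, and regions were placed against 21631 protein-coding genes of the GRCm38.p6 table, the build that mm10 names, without exons or introns. The strand was taken from RefSeq start windows, present for 17274 of these genes. All 725 listed genes were matched by symbol. The result of 1 gene list is not reported here, and its genes remain in the totals. Coordinates are 1-based. Python 3.11.15, NumPy 2.4.6, pandas 2.3.3, SciPy 1.17.1 and Matplotlib 3.10.9 were used. With 1 library per genotype no test between genotypes was made. Intervals are exact 95% intervals (binomial for shares, Poisson for densities) for counting error alone.

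Members, lists and tests were chosen with earlier results of these data known. Named were the 12 strongest members, the 10 genes with most members (ties to the shorter gene, which left out 2 of the 6 genes with 4), up to 4 genes per list by number and strength of members, the members nearest to the 1 kb limit and nearest to or farthest from a DNMT3A-KO peak, up to 5 members over genes of other types, and Dnmt3a. The steps were tested on simulated lists. No genome sequence was used here, so the base content of members away from start windows is not reported, and start windows on chromosome 18 were not used here.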

Additional observations from a re-analysis of the deposited data

How the results depend on the processing

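Values were recomputed under other thresholds, list lengths, overlap rules, distances and chromosome sets, 157 values in all, of which 117 stayed inside the counting interval of the value reported or, for counts, within 1.5 times of it. No paired analysis was possible because there was 1 library of each genotype. The number of members ran from 1367 to 2246 except at a −log10 q of at least 10, which left 94. Their share of wild-type-only regions became 39.6% under a reciprocal overlap of 50%, 43.3% with peaks within 200 bp joined, 43.9% with peaks within 1 kb joined, 37.0% at 2.5 kb from gene ends and 39.65% with the ends of all gene types. The wild-type-only share of unshared regions inside genes became 22.9% at a −log10 q of at least 10, 47.4% with lists of equal length, 38.9% under the reciprocal overlap and 34.2% with peaks within 1 kb joined. The share of members with a DNMT3A-KO peak within 1 kb became 13.3% when both lists were limited to a −log10 q of 5 or more, 12.8% at 10, 12.4% with lists of equal length, 38.2% under the reciprocal overlap and 6.22% with peaks within 200 bp joined. Joining peaks within 1 kb leaves no such neighbour by construction and gives no value. The last 3 settings change what counts as a member or a neighbour. In each setting that gave a value for both classes the share stayed higher for members than for knockout-only regions. The share of members whose gene holds a shared region became 51.2% and 49.5% with peaks within 200 bp and 1 kb joined. The median length of genes with members became 87.6 kb at 2.5 kb from gene ends. Listed genes with members numbered 239 when gene intervals were extended by 10 kb, which lets in regions at and beyond gene ends. Of 100 counts for single lists, 21 moved by more than 1.5 times. Causes beyond those that follow from how a setting is built were not tested. The planned content of 200 bp around each summit was not run, because no genome was used here. A median pileup of 6 limits what can be said of a single member.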
